A study of Mus musculus with 16 samples.

Results

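The genes described here are 38 mouse genes for chromatin regulators, the enzymes, readers and remodelers that write, remove, recognise or reposition marks and nucleosomes on chromatin. They were chosen by symbol: RefSeq genes of the mm10 build whose symbols start with Kdm, Kmt, Hdac, Kat, Setd, Chd, Arid, Brd, Baz or Phf and go straight on with a digit, or start with Smarc and go on with a letter, and whose span holds at least 1 listed region. RefSeq has 121 protein-coding genes with such symbols, of which 38 (31.4%) held a region, against 3166 of all 21900 protein-coding genes (14.5%). They carried 77 of the 8338 regions and made up 38 of the 3203 genes with a region. None of the 77 regions lay in a further gene's span. No measured response entered the choice, apart from the need for a region.

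The libraries came from KIN-CLIP, an iCLIP method in which a pulsed femtosecond ultraviolet laser fixes an RNA-binding protein to the RNA it touches for a set time. The cells were 1 monoclonal line of mouse GC-1 spg, a line derived from spermatogonia, in which doxycycline switches on the germ cell RNA-binding protein Dazl. A processed file was used for 12 conditions, 1 library each: crosslinking for 30, 180 or 680 s, at a laser power of 1 or 2.6 mW, with Dazl at 1x or 4.2x of a relative level taken from western blots. The samples of 0 s were not analysed here, and the values are therefore given without a background from uncrosslinked cells. All groups share the same clone, the inducible transgene and the doxycycline treatment, so the lower Dazl level is not a control without Dazl.

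Chromatin regulators work in classes. Histone methyltransferases and acetyltransferases add marks to histone tails, demethylases and deacetylases take them off, proteins with bromodomains or PHD fingers bind the marks, and remodelers use ATP to move nucleosomes. Dazl acts on the other side of expression: it binds mRNAs of germ cells, mostly in the part after the coding sequence and at short sites that contain GUU, and is known for controlling their translation and stability.

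The deposited value is a normalized coverage, a whole-number score per position, whose counting and normalization were not given in the sources used here. A region is made of short intervals, most often of 1 nt, and its positions without an interval add nothing. The score times the width of each interval was summed over a region, and regions were summed over a gene; this sum is called coverage here. Coverage grows with the number and length of regions, so a larger sum is not a higher level, and levels are compared between genes only as the mean per nucleotide of the regions. Summed over all regions, a library held between 11271 (180 s, 1 mW, 1x Dazl) and 252932 (680 s, 2.6 mW, 4.2x Dazl), and the 38 genes made up between 0.71% and 0.896% of it. The authors' values are linked between libraries: at 2.6 mW and 4.2x Dazl, 45.5% of all regions had the very same value at 30 s and 680 s and 0 regions were lower at 680 s, so libraries are not independent draws and p-values may be too small. Of 12 germ cell markers only Sall4 had a region (summed coverage 1 to 3), and Dazl itself had none; Sertoli cell markers Dhh and Wt1, of 6 in that list, summed to 2 to 66 over the libraries, and all 5 Leydig cell and all 4 macrophage markers had no region. Of the 4 endothelial markers only Kdr had one (1 to 12), and of the 2 peritubular markers only Acta2 (1 to 32).

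Sequences are printed for 3 of the 77 regions, each in a RefSeq promoter window of GRCm38.p6, the assembly behind mm10. Such a window runs from 250 bases before to 50 after a start. The longest regions and some others were not looked up, so further regions of the 77 may lie in such a window. The 3 were all the regions found in such a window among those looked up. They are shown because all 3 hold the letters GTT at their middle, the DNA spelling of the GUU that Dazl is known to bind. Each is printed 5′ to 3′ on the plus strand with positions 8 to 10 of its 17 bases in capitals, from RefSeq.
Kdm5a (chr6:120364475-120364491): aggactcGTTctcgtcc
Kdm8 (chr7:125444635-125444651): gctccgcGTTcctctag
Smarcal1 (chr1:72583247-72583263): aaatgtaGTTcgacggt
The Kdm8 region began 15 nt after the start of Kdm8, and the Smarcal1 region spanned a start inside that gene. The Kdm5a region lay in the window of its neighbour Ccdc77, which runs on the other strand, and outside the span of Ccdc77. Among all 113 listed regions of 17 nt inside such windows, 53 (46.9%) had GTT at positions 8 to 10 on the plus strand and 0 on the minus strand. Of 35 such regions with a known gene strand, 25 had it on the strand of the gene and 10 on the opposite strand. In those 10 the RNA of the gene would not read GUU at these positions. Over 558467 stretches of 17 bases that tile the 32851 windows without overlap, 2.44% had GTT at positions 8 to 10 on either strand. GTT at any place on either strand was found in 65 of the 113 regions (57.5%) and in 31% of the stretches. These are matches of letters and do not show where Dazl was bound. How the authors selected sites was not given in the sources used here. Whether that selection set the letters at the middle of a region was not tested.

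In level, the chromatin regulators resembled the rest of the transcripts. Their median coverage, averaged over the 12 libraries, was 16.2 against 16.3 for all 3203 genes, and their median per listed nucleotide was 0.667 against 0.632. Their spans were longer, with a median of 46721 nt against 31525 nt. A mean coverage of at least 10 was reached by 32 of the 38 (84.2%) and by 68.8% of all genes. Of their regions, 64 were 17 nt long, 12 were longer, up to 42 nt, and 1 was 16 nt. There were 17 genes with 1 region, 13 with 2 and 8 with more.

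**Figure D1:**
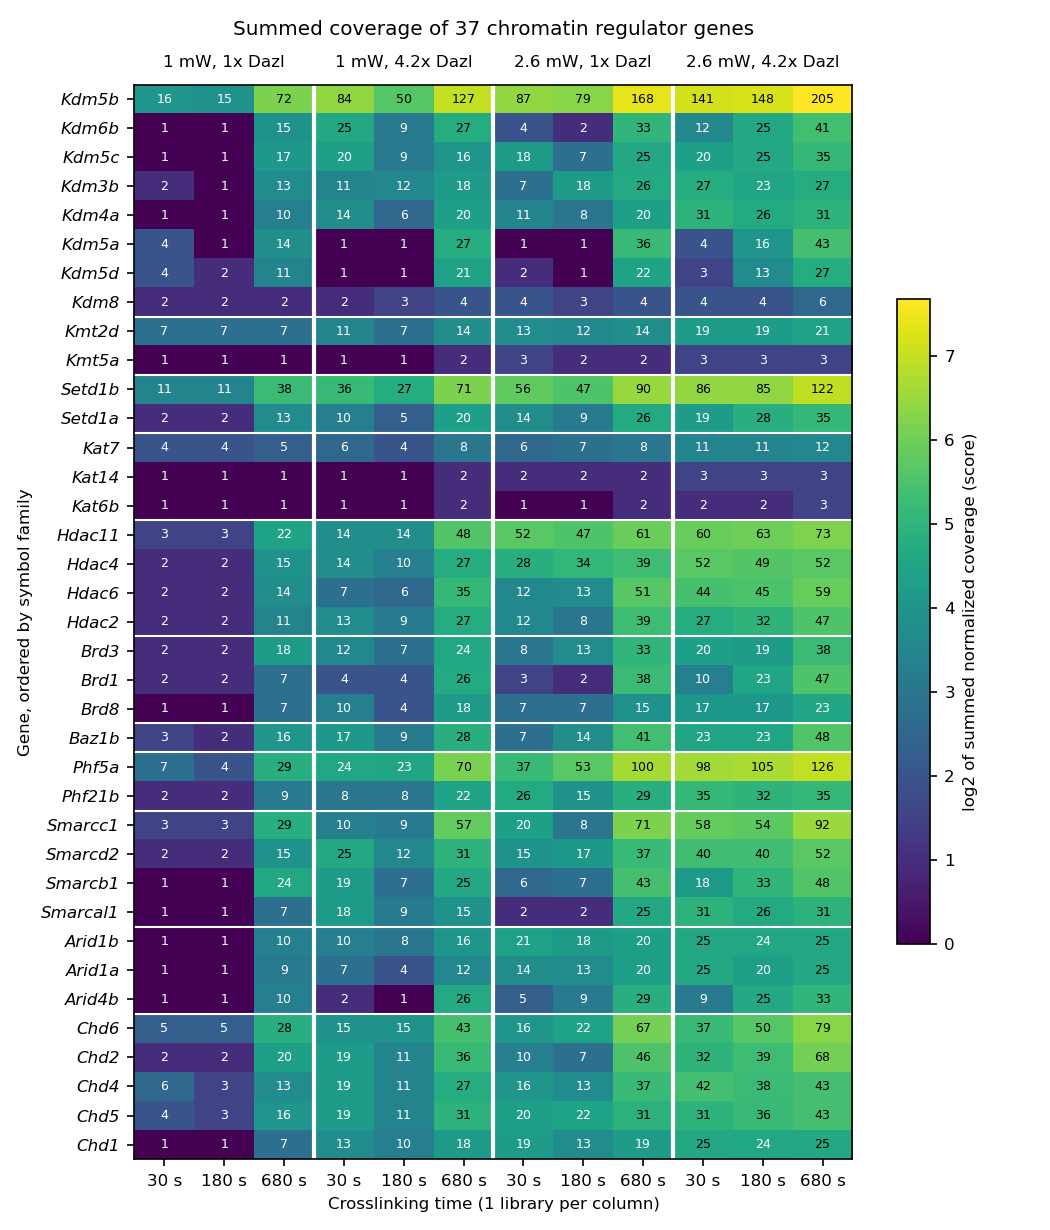
Coverage (score, summed over regions) of 37 of the 38 chromatin regulator genes in each of the 12 libraries, ordered by family; colour is log2 of the coverage and the printed number is the coverage itself. The columns of 1 mW and 1x Dazl at 30 and 180 s are the darkest, Kdm5b reaches 205, and the Kat genes, Kmt5a and Kdm8 stay at 12 or below in every library.

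Among the methyltransferases, which write the marks, Setd1b had the largest sum. Setd1b is a catalytic subunit of a complex that methylates histone H3 at promoters, and it held 6 regions. Its coverage at 30, 180 and 680 s was 11, 11 and 38 at 1 mW and 1x Dazl, 36, 27 and 71 at 1 mW and 4.2x, 56, 47 and 90 at 2.6 mW and 1x, and 86, 85 and 122 at 2.6 mW and 4.2x. In each of the 4 series 680 s was the highest, and 30 and 180 s lay close together or 180 s was the lower. Its close relative Setd1a, with 2 regions, was also highest at 680 s in each series, and ran from 2 to 35. Per nucleotide the order turned: Setd1a had 0.449 and Setd1b 0.411.

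Kmt2d, a methyltransferase that acts at enhancers, held 5 regions and yet stayed low, between 7 and 21 in all libraries. It had 7, 7 and 7 at 1 mW and 1x Dazl, 11, 7 and 14 at 1 mW and 4.2x, 13, 12 and 14 at 2.6 mW and 1x, and 19, 19 and 21 at 2.6 mW and 4.2x. Per nucleotide it had 0.125. Kmt5a, which methylates histone H4, ran from 1 to 3. The acetyltransferases Kat7, Kat14 and Kat6b, of which Kat7 and Kat6b are catalytic subunits of related complexes, were low in the same way: Kat7 ran from 4 to 12 over 3 regions, and Kat14 and Kat6b from 1 to 3.

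The low values of these 2 families came from regions at the lowest listed value. In the library with the most coverage (680 s, 2.6 mW, 4.2x Dazl) the lowest listed region value was 3, and 10 of the 77 regions (13.0%) had it, against 9.87% of all regions. Of the 10, 8 were among the 11 Kat and Kmt regions, where the highest value in any library was 6, and the other two were both regions of the demethylase Kdm8. Every region was at the lowest value in 4 genes (10.5%), against 414 of all genes (12.9%), and 32 chromatin regulators had no such region. This split by family was seen in the values, not set in advance, and was given no test.

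Among the demethylases, which remove methyl marks, Kdm5b had the largest sum of all 38 genes. Kdm5b removes methyl groups from histone H3 at promoters, and its 7 regions lay within chr1:134631586-134632011, between 867 and 1251 nt from the 3′ end of the gene. It had 16, 15 and 72 at 1 mW and 1x Dazl, 84, 50 and 127 at 1 mW and 4.2x, 87, 79 and 168 at 2.6 mW and 1x, and 141, 148 and 205 at 2.6 mW and 4.2x. The lowest library was 180 s at 1 mW and 1x, and in each series 680 s was the highest. Per nucleotide its mean of 0.578 lay below the median of the chromatin regulators, and the sum runs over 172 listed nucleotides.

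Its paralog Kdm5a had 1 region and another course. Kdm5a had 4, 1 and 14 at 1 mW and 1x Dazl, 1, 1 and 27 at 1 mW and 4.2x, 1, 1 and 36 at 2.6 mW and 1x, and 4, 16 and 43 at 2.6 mW and 4.2x. It was between 1 and 4 until 180 s in all series but that of 2.6 mW and 4.2x, and reached 14 to 43 at 680 s. Kdm5d, the Y-linked paralog, which was named after its values were seen, had 4, 2 and 11, then 1, 1 and 21, then 2, 1 and 22, and then 3, 13 and 27 in the same series order. Kdm5c, the X-linked paralog, is given outside the naming rules and differed from both. With 1 region it had 20 at 30 s, 1 mW and 4.2x, where Kdm5a and Kdm5d had 1. The placing of reads that match several paralogs was not given in the sources used here.

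Kdm6b, which removes a repressive methyl mark from histone H3, had its highest 30 s value at 1 mW and 4.2x Dazl. It had 1, 1 and 15 at 1 mW and 1x Dazl, 25, 9 and 27 at 1 mW and 4.2x, 4, 2 and 33 at 2.6 mW and 1x, and 12, 25 and 41 at 2.6 mW and 4.2x. The 30 s value at 1 mW and 4.2x was above both 30 s values at 2.6 mW, with 1 library behind each. Kdm3b and Kdm4a, 2 further demethylases, ran from 1 to 27 and from 1 to 31.

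The deacetylases, which remove acetyl groups, included Hdac11, a small enzyme in a class of its own with the highest mean per nucleotide of the 4 Hdac genes, 1.06. Its single region of 36 nt (chr6:91172396-91172431) had 3, 3 and 22 at 1 mW and 1x Dazl, 14, 14 and 48 at 1 mW and 4.2x, 52, 47 and 61 at 2.6 mW and 1x, and 60, 63 and 73 at 2.6 mW and 4.2x. At each time, both values at 2.6 mW lay above both at 1 mW. Hdac4, a deacetylase that moves between nucleus and cytoplasm, had 2, 2 and 15, then 14, 10 and 27, then 28, 34 and 39, and then 52, 49 and 52. Hdac6, which mainly deacetylates tubulin in the cytoplasm and so is a chromatin regulator by name more than by substrate, had 2, 2 and 14, then 7, 6 and 35, then 12, 13 and 51, and then 44, 45 and 59. Hdac2, a subunit of several corepressor complexes, ran from 2 to 47.

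Among the readers, Brd1, a scaffold subunit of acetyltransferase complexes, was low until 180 s in all series but the last. It had 2, 2 and 7 at 1 mW and 1x Dazl, 4, 4 and 26 at 1 mW and 4.2x, 3, 2 and 38 at 2.6 mW and 1x, and 10, 23 and 47 at 2.6 mW and 4.2x. Baz1b, a reader and kinase that partners a remodeler, had 3, 2 and 16, then 17, 9 and 28, then 7, 14 and 41, and then 23, 23 and 48. Phf5a carries a PHD-like fold but works in the spliceosome, and had 7, 4 and 29, then 24, 23 and 70, then 37, 53 and 100, and then 98, 105 and 126 over 3 regions. Brd3, Brd8 and Phf21b ran from 2 to 38, 1 to 23 and 2 to 35.

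The remodelers were represented by the BAF complex and the Chd family. Smarcc1, a core BAF subunit, had 3, 3 and 29 at 1 mW and 1x Dazl, 10, 9 and 57 at 1 mW and 4.2x, 20, 8 and 71 at 2.6 mW and 1x, and 58, 54 and 92 at 2.6 mW and 4.2x. Smarcb1, also a BAF subunit and named after its values were seen, had the highest mean per nucleotide of the 38 genes, 1.14, from 1 region. Arid1a and Arid1b, the alternative DNA-binding subunits of BAF, each had 1 region and both ended at 25 at 30 s and 680 s of 2.6 mW and 4.2x. Smarcal1 is no BAF subunit but an annealing helicase at replication forks, and had 1, 1 and 7, then 18, 9 and 15, then 2, 2 and 25, and then 31, 26 and 31.

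Arid4b, a subunit of the Sin3 deacetylase complex, had 1, 1 and 10 at 1 mW and 1x Dazl, 2, 1 and 26 at 1 mW and 4.2x, 5, 9 and 29 at 2.6 mW and 1x, and 9, 25 and 33 at 2.6 mW and 4.2x. Its region (chr13:14184380-14184396) was thus near the lowest value at 30 s in both 1 mW series. Chd6, with 4 regions, had the largest sum of the Chd remodelers and the lowest mean per nucleotide, 0.358 against 0.436 to 0.858 for the other Chd genes. It had 5, 5 and 28, then 15, 15 and 43, then 16, 22 and 67, and then 37, 50 and 79. Chd2 had 2, 2 and 20, then 19, 11 and 36, then 10, 7 and 46, and then 32, 39 and 68. Chd4, the ATPase of the NuRD complex, moved less with time, with 6, 3 and 13, then 19, 11 and 27, then 16, 13 and 37, and then 42, 38 and 43.

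**Figure D2:**
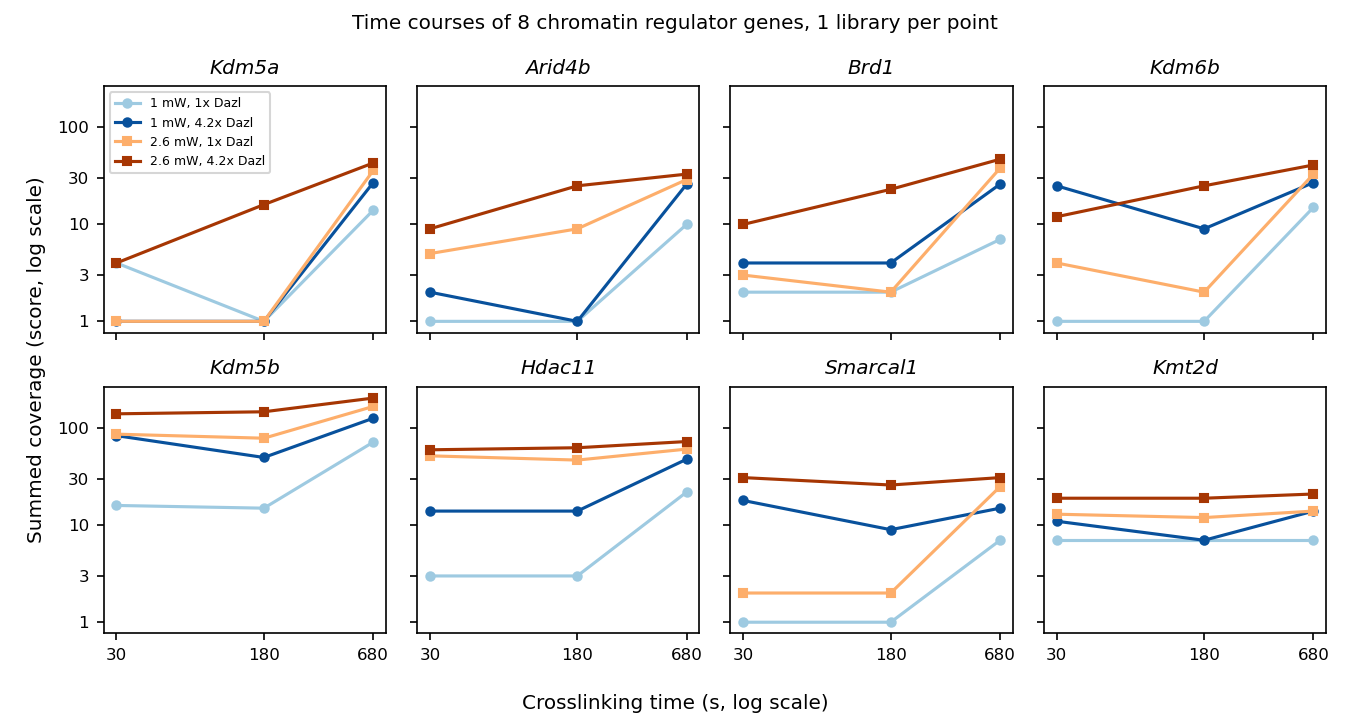
Coverage (score, log scale) against crosslinking time (s, log scale) for 8 chromatin regulator genes, 1 line per combination of laser power and Dazl level and 1 library per point. Kdm5a, Arid4b and Brd1 climb mainly by 680 s, Hdac11 at 2.6 mW stays between 47 and 73, and Kmt2d stays between 7 and 21.

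The design asks how crosslinking of Dazl to each RNA changed with time, light and the amount of Dazl. With 1 library per condition, each factor was tested over the levels of the others with limma on log2(coverage + 3). The additive model was fitted to all 3203 genes, with 7 residual degrees of freedom and Benjamini-Hochberg adjustment over all genes. To these limma adds prior degrees of freedom, which stand for spread pooled across genes. Their median was 107.09 as deposited and 10.98 in the scaled version described below. The p-values rest on the spread around this additive model, not on repeat cultures. As deposited they rest mostly on the pooled spread, so their small size does not come from 7 degrees of freedom alone. A log2 change on this scale understates the change of low genes. In a second version each library was scaled to a common total, which removes what all genes share: as deposited, the median gene changed by 0.88 (Dazl), 1.22 (laser) and 1.03 (680 against 30 s) on the log2 scale, and after scaling by -0.07, -0.08 and 0.00. A gene that rose less than the median gene as deposited can therefore be lower after scaling. Among such genes were Kat6b, Kat7, Kdm8 and Kmt2d, which hold regions at the lowest listed value. That value was 1 in the library with the smallest total (11271) and 3 in that with the largest (252932). Genes near it were also among those called higher as deposited. Kat6b, at 1 to 3, was called for Dazl, laser power and 680 against 30 s, and Kat14, at 1 to 3, for Dazl and laser power. How far such calls follow the lowest listed value was not tested. Directions below hold for the version named with them.

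With 4.2x against 1x Dazl, 32 of the 38 genes were higher and 0 lower in the values as deposited (limma, adjusted p under 0.05), where 82.4% of all genes were called higher. The median change was 0.94 on the log2 scale (1.92-fold) against 0.88 (1.84-fold) for all genes. In 6 of 6 matched pairs of libraries 27 of the 38 were higher, and the share of all genes for this count is not given here. In single pairs 30 to 38 of the 38 were higher, and 2319 to 3176 of all 3203 genes. Kat7, Kdm5a, Kdm5d, Kdm8, Kmt2d and Kmt5a did not pass. Without the 30 s libraries 14 passed (36.8%, against 36.7% of all genes) and without the 180 s libraries 19 (50.0%, against 47.1%), with fewer libraries in each fit and medians of 0.81 and 0.86.

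Smarcal1 had the largest change with Dazl, 1.73 ± 0.28 (SE, log2; 3.33-fold; adjusted p = 2e-06), and was higher in 6 of 6 pairs. Its 30 s values were 1 and 18 at 1 mW and 2 and 31 at 2.6 mW, for 1x and 4.2x. Kdm6b followed with 1.50 ± 0.28 (adjusted p = 2e-05) and Chd2 with 1.40 ± 0.29 (adjusted p = 6.4e-05), both higher in 6 of 6 pairs. Kdm5b changed by 1.06 ± 0.35 (adjusted p = 0.00563). Kdm5a, at 0.55 ± 0.27, missed the threshold (adjusted p = 0.0509), and Kdm5a and Kdm5d were the only chromatin regulators with less coverage at 4.2x than at 1x at 30 s and 1 mW, 1 against 4 in both; 61 of all genes (1.9%) had that order there.

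The difference between Dazl levels was widest in the weak conditions. At 30 s and 1 mW the median 4.2x to 1x ratio over the 38 genes was 4.87 (all genes 4.0), at 180 s and 1 mW 3.83 (3.5), and at 680 s and 1 mW 1.98 (2.0). At 2.6 mW it was 1.93 (1.88), 2.07 (2.04) and 1.25 (1.26) in the same time order. The chromatin regulators thus stayed near the median gene in each pair, and where it was largest, most 1x values were at the lowest listed value: 72.7% of the 77 regions at 30 s and 79.2% at 180 s (74.0% and 80.5% of all regions).

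After scaling to a common total, 0 of the 38 genes and 0 of all 3203 passed for Dazl (limma, adjusted p under 0.05); 7 of the 38, 5 higher and 2 lower, and 539 of all genes had an unadjusted p under 0.05. Smarcal1 (0.99 ± 0.28, adjusted p = 0.179), Kdm6b (0.77 ± 0.27) and Chd2 (0.49 ± 0.20) had the largest scaled estimates. Among genes with a mean of at least 10, Kmt2d (-0.63 ± 0.28), Kdm5a (-0.36 ± 0.39) and Setd1b (-0.30 ± 0.14) had the lowest, and none of these 6 passed. The Kdm5a estimate turned to 0.09 without the library of 30 s, 1 mW and 1x. Left out as a group, the 3 libraries of 2.6 mW and 4.2x Dazl changed the count from 0 to 4 (Kat7, Kdm5a, Kdm5d and Kmt2d, all lower; 10.5%, against 8.09% of all genes), and without the 680 s libraries Smarcal1 passed as the only one (63 of all genes, 1.97%).

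With 2.6 against 1 mW, 37 of the 38 genes were higher and 0 lower as deposited (limma, adjusted p under 0.05), where 93.4% of all genes were called higher. Among the 37 were genes near the lowest listed value: Kat14, Kat6b and Kmt5a, at 1 to 3, and Kdm8, at 2 to 6. The median change was 1.18 on the log2 scale (2.27-fold) against 1.22 (2.33-fold) for all genes. Of the 38, 31 were higher in 6 of 6 pairs, a count not given here for all genes. In single pairs 34 to 38 of the 38 were higher, and 2575 to 3202 of all 3203 genes. Hdac11 changed by 2.01 ± 0.31 (4.02-fold, adjusted p = 8.91e-08), Phf5a by 1.91 ± 0.32 and Hdac4 by 1.89 ± 0.30, and these genes were each higher in 6 of 6 pairs.

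Kdm6b was the one gene that did not pass for laser power, at 0.50 ± 0.28 (adjusted p = 0.0845), with 5 of 6 pairs higher. The call of Kdm5a (0.68 ± 0.27, adjusted p = 0.0152) was lost in 7 of 24 alternatives, among them the fits without 180 s at 2.6 mW and 4.2x Dazl (0.37, adjusted p = 0.122) and without all libraries of 2.6 mW and 4.2x Dazl (0.13 ± 0.30, adjusted p = 0.675). Median ratios over the 38 genes at 30, 180 and 680 s were 5.05, 5.85 and 2.32 at 1x Dazl and 2.21, 3.38 and 1.59 at 4.2x. Those of all genes were 4.62, 5.75 and 2.42, and 2.25, 3.58 and 1.6.

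After scaling, 0 of the 38 genes and 0 of all genes passed for laser power (limma, adjusted p under 0.05), with 10 of the 38, 4 higher and 6 lower, and 927 of all genes at an unadjusted p under 0.05. Hdac11 (0.55 ± 0.19) and Hdac4 (0.52 ± 0.19) were among the 3 largest scaled estimates of genes with a mean of at least 10, and Kmt2d (-0.75 ± 0.28), Kdm6b (-0.67 ± 0.27) and Kdm5a (-0.47 ± 0.39) were the lowest of them. Without the 3 libraries of 2.6 mW and 4.2x Dazl 8 passed (21.1%, against 26.9% of all genes), 2 higher, among them Hdac11, and 6 lower: Kat6b, Kat7, Kdm5a, Kdm5d, Kdm8 and Kmt2d. Without the 30 and 180 s libraries of 1 mW and 1x Dazl the Kdm5a estimate was 0.28.

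**Figure D3:**
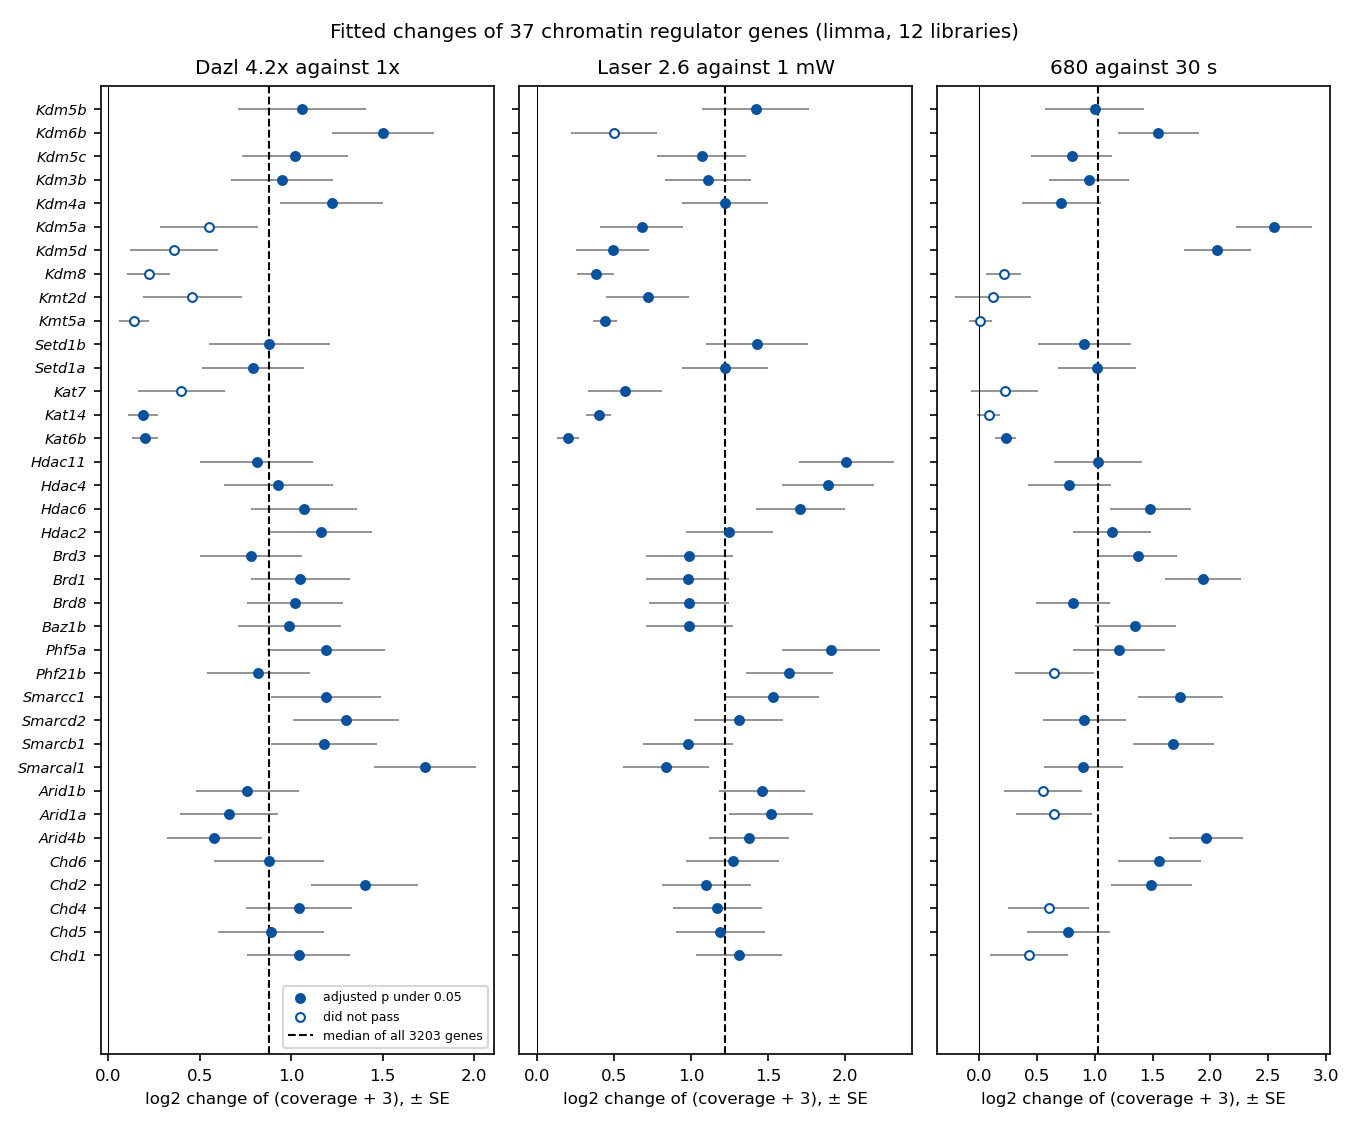
Fitted log2 change of (coverage + 3) with its SE for 37 of the 38 chromatin regulator genes between Dazl levels, laser powers and 680 against 30 s, in the values as deposited; filled points passed at an adjusted p under 0.05 (limma) and the dashed line is the median of all 3203 genes. Smarcal1 and Kdm6b lie farthest right for Dazl, Hdac11 and Phf5a for laser power, and Kdm5a and Kdm5d for time.

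Between 680 and 30 s, 27 of the 38 genes were higher and 0 lower as deposited (limma, adjusted p under 0.05), where 73% of all genes were called higher. The median change was 0.91 on the log2 scale (1.88-fold) against 1.03 (2.04-fold) for all genes. Of the 38, 23 were higher in 4 of 4 series, a count not given here for all genes. In single series 27 to 36 of the 38 were higher, and 2389 to 2947 of all 3203 genes. Arid1a, Arid1b, Chd1, Chd4, Kat14, Kat7, Kdm8, Kmt2d, Kmt5a and Phf21b were among the 11 that did not pass. Leaving out 680 s at 1 mW and 1x, or 680 s at 2.6 mW and 1x, left 16 calls each (42.1%, against 52.4% and 54.2% of all genes), and a slope on log2 time gave 12 (31.6%, against 38.2%).

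Kdm5a had the largest change with time, 2.55 ± 0.33 (SE, log2; 5.84-fold; adjusted p = 1.04e-09). Kdm5d (2.06 ± 0.29, adjusted p = 1.93e-08), Arid4b (1.96 ± 0.32, adjusted p = 1.89e-07) and Brd1 (1.94 ± 0.33, adjusted p = 3.53e-07) followed, and all 4 were higher at 680 s in 4 of 4 series. The BAF subunits Smarcc1 and Smarcb1 changed by 1.74 ± 0.37 and 1.68 ± 0.35. By contrast, Kmt2d changed by 0.12 ± 0.33 (adjusted p = 0.725).

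Between 30 and 180 s no gene passed. As deposited, 0 of the 38 genes passed and 0 had an unadjusted p under 0.05 (limma), with a median change of -0.13 on the log2 scale; of all genes 0 passed and 5 had such a p, with a median of -0.09. Coverage at 180 s was below that at 30 s in 8 of the 38 genes at 1 mW and 1x Dazl, 27 at 1 mW and 4.2x, 21 at 2.6 mW and 1x and 13 at 2.6 mW and 4.2x. The shares of all genes were 27.4%, 65.2%, 48.5% and 30.4%. The 180 s library had a lower total than the 30 s library of its series except at 2.6 mW and 4.2x Dazl.

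After scaling, Arid4b was the only one of the 38 that passed for 680 against 30 s, and it was higher, at 1.09 ± 0.31 (limma, adjusted p = 0.0329). Among all genes 9.77% were called higher and 1.56% lower, so 1 call in 38 is below that share. The Arid4b call was lost in 9 of 23 alternatives, among them 7 of 12 fits without 1 library and the fit of genes with a mean of at least 10; its adjusted p ran from 0.011 to 0.13. An unadjusted p under 0.05 was found for 9 of the 38, 6 higher and 3 lower, and the median scaled change was -0.02.

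Kdm5a had the largest scaled estimate for time but a wide error, 1.43 ± 0.47 (adjusted p = 0.0588), and Brd1 had 0.94 ± 0.38. Both passed once the library of 30 s, 1 mW and 1x Dazl was left out, with estimates of 2.12 and 1.26. Kdm5a had 4 in that library. In that fit 5 of the 38 passed (13.2%, against 14.9% of all genes). Kdm5a also passed without 180 s at 2.6 mW and 1x Dazl (1.45) and without 180 s at 2.6 mW and 4.2x (1.41). Kmt2d (-0.91 ± 0.34) and Chd4 (-0.50 ± 0.23) were among the 3 lowest estimates of genes with a mean of at least 10.

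Whether 1 factor changed the response to another was tested by adding 1 interaction term at a time. Residual degrees of freedom were 6 for Dazl by laser and 5 for time by laser and time by Dazl. The median prior degrees of freedom were 1395.56, 19.47 and 277.66 in the same order. None of the 38 genes passed in any of the 3 (limma, adjusted p under 0.05), where 1 gene of 3203 was called lower for Dazl by laser (0.0312%) and 0 for the other two. At an unadjusted p under 0.05 there were 4 of the 38 for Dazl by laser (486 of all genes), 1 for time by laser (185) and 3 for time by Dazl (224). For time by Dazl, Smarcal1 had -2.01 (adjusted p = 0.66 with limma). A fit without 680 s at 1 mW and 1x Dazl called 6 of the 38 (15.8%) for Dazl by laser, and 26.8% of all genes.

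The share of the 680 s coverage already listed at 30 s describes how early a transcript filled. Its median over the 38 genes was 16.4% at 1 mW and 1x Dazl, 52.3% at 1 mW and 4.2x, 48.3% at 2.6 mW and 1x, and 73.0% at 2.6 mW and 4.2x. The medians of all genes were 18.2%, 50.0%, 45.9% and 68.9%. More light or more Dazl thus went with a higher share in the chromatin regulators as in the other genes.

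**Figure D4:**
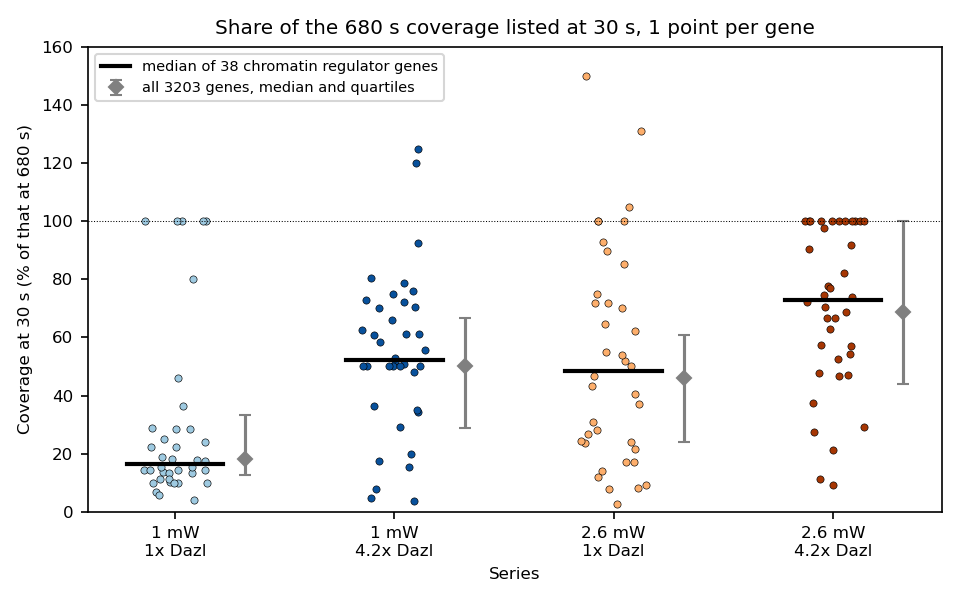
Coverage at 30 s as a percent of that at 680 s, 1 point for each of the 38 chromatin regulator genes in each series, with their median (black line) and the median and quartiles of all 3203 genes (grey). The medians of the 38 genes run from 16.4% at 1 mW and 1x Dazl to 73.0% at 2.6 mW and 4.2x Dazl, and points at 100% had equal values at 30 and 680 s.

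The genes differed most in this share at 2.6 mW and 4.2x Dazl. The same coverage was listed for 11 of the 38 (28.9%, against 25.4% of all genes) at 30 and 680 s, and 9 of them were above the lowest listed value, among them Hdac4, Phf21b, Kdm3b, Kdm4a, Arid1b, Chd1, Smarcal1 and Arid1a. Less than 50% of the 680 s value was reached at 30 s by 9 others (23.7%, against 28.5%): Chd6, Chd2, Smarcb1, Baz1b, Kdm6b, Brd1, Arid4b, Kdm5d and Kdm5a. Kdm5a had 9.3% and Kdm5d 11.1%. Early and late genes thus stood in the same families: Chd1 against Chd2 and Chd6, Kdm4a against Kdm5a, Arid1b against Arid4b, and Smarcal1 against Smarcb1.

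Regions of 1 gene also filled at different times. The 77 regions formed 39 pairs of neighbours in a gene, 35 of them at most 200 nt apart, with a median gap of 73 nt. There were 18 genes above the lowest value with at least 2 regions. Of these, 10 held both a region with equal values at 30 and 680 s of 2.6 mW and 4.2x Dazl and one without. Such equal values were found in 44.2% of the 77 regions and in 45.5% of all regions. A count of mixed genes over all genes is not given here. In Baz1b, region 1 (chr5:135188140-135188156) had 22, 22 and 22 at 30, 180 and 680 s in that series, and region 2 (chr5:135188309-135188325) had 1, 1 and 26. In Hdac2 the pair was 5, 10 and 25 (chr10:36974651-36974667) against 22, 22 and 22 (chr10:36974802-36974818). Brd3 had 2, 1 and 20 in one region and 18, 18 and 18 in the other. A gene's coverage can therefore hold an early and a late region, and these examples were chosen after their values were seen. In 3 genes, among them Hdac4 and Phf21b, all regions were equal at both times, and in 5 (Brd1, Chd2, Chd6, Setd1a and Smarcc1) none was.

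The strand of the gene was known for 59 of the 77 regions, in 29 genes. Of these, 21 (35.6%) lay within 1000 nt of the 3′ end of the gene span, against 37.3% of 6215 regions of all genes, and 34 (57.6% against 63.7%) within 3000 nt. Within 1000 nt of the 5′ end there were 6 (10.2% against 6.6%). The median distance to the 3′ end was 1609 nt against 1678 nt. Nearer to the 3′ end the chromatin regulators had fewer: 6 (10.2% against 16.6%) within 300 nt, 8 (13.6% against 23.4%) within 500 nt and 12 (20.3% against 29.7%) within 700 nt. The differences were given no test, since regions of 1 gene lie close together; spans include introns, and exons and untranslated regions were not annotated here.

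**Figure D5:**
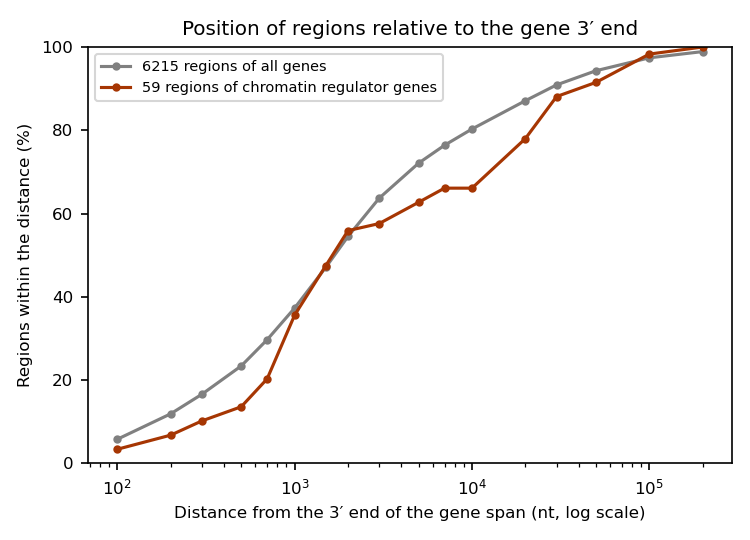
Cumulative percent of regions within a given distance (nt, log scale) of the 3′ end of the gene span, for 59 regions of chromatin regulator genes and 6215 regions of all genes with a known strand. The curves lie close together at 1500 nt (47.5% of chromatin regulator regions against 47.1%) and 2000 nt (55.9% against 54.5%). The chromatin regulator curve lies lower at 100 to 1000 nt and at 3000 to 50000 nt.

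A list of 108 further chromatin genes without such symbols, among them polycomb, heterochromatin, DNA methylation and complex subunit genes, gave 30 genes with a region. With Dazl 26 of these 30 were higher as deposited, with laser power 30 and at 680 s 20 (limma, adjusted p under 0.05; the shares of all genes are 82.4%, 93.4% and 73%). Cbx5, a heterochromatin protein that binds methylated histone H3, had the largest sum, 22, 14 and 104 at 1 mW and 1x Dazl, 120, 82 and 224 at 1 mW and 4.2x, 189, 169 and 327 at 2.6 mW and 1x, and 334, 324 and 377 at 2.6 mW and 4.2x, over 11 regions. The histone-binding subunits Rbbp4 and Rbbp7 had means of 94.8 and 70.4, Wdr5, a core subunit of methyltransferase complexes, 90.4, and the polycomb subunit Suz12 81.8. The median log2 changes of the 30 were 1.11 for Dazl, 1.53 for laser power and 0.96 for time. After scaling 4 were higher and 2 lower at 680 s (limma, adjusted p under 0.05), where 9.77% of all genes were called higher and 1.56% lower.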

How the data were processed

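Each library's deposited table lists intervals with a score, called normalized coverage by the authors per the labels. FastQC, Bowtie2 and mm10 are named, per the submitters' processing notes; versions, counting, normalization and site selection were not given in the sources used here, so depth in reads is unknown and no counting interval is given. Intervals of all libraries were joined across gaps of up to 10 nt, the score times width of each interval was summed per region, and regions were assigned to RefSeq gene spans (GRCm38.p6). Genes were fitted with limma 3.58.1 in R 4.3.3 (time + laser + Dazl on log2(coverage + 3), eBayes with trend and robust), as deposited and scaled to a common library total; the script was tested on simulated data. Python 3.11.15 was used elsewhere. Alternatives changed the pseudocount (1, 10), the filter (mean of at least 10), joining, overlaps, eBayes, scaling and time coding, and left out each library, each time and 2 groups of libraries; the 2 groups were chosen after seeing the data. The members, lists and rules were chosen with earlier results of these data known. Genes named with values by rule are the 10 of highest mean, the top gene per family and scaled calls. To these come the 3 largest and 3 lowest scaled changes per comparison among genes with a mean of at least 10. Others are said to be chosen later or given as ranges. Single values of Setd1a, Kdm5c and Arid1a are given outside these rules. One member is not reported here by name; it stays in all counts and medians. The 4 samples of 0 s were not analysed here.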

Additional observations from a re-analysis of the deposited data

How the results depend on the processing

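Counts of passing chromatin regulators (limma, adjusted p under 0.05) depended on which libraries entered, as did those of all genes. As deposited, the 32 calls for Dazl ran from 28 to 33 (73.7% to 86.8%) when 1 library was left out, and all genes from 69.5% to 82.0%. Without the 30 s libraries 14 passed (36.8%, against 36.7% of all genes), and without the 180 s libraries 19 (50.0%, against 47.1%). The 37 for laser power ran from 34 to 38 (89.5% to 100.0%), and all genes from 87.2% to 94.0%. The 27 calls for 680 against 30 s ran from 16 to 30 (42.1% to 78.9%), and all genes from 52.4% to 82.0%. With a slope on log2 time 12 passed (31.6%, against 38.2% of all genes). With eBayes without trend and robust, 31 passed for Dazl, 34 for laser power and 25 for 680 against 30 s. The shares of all genes were then 73.2%, 85.5% and 65.6%. Scaled, the 0 calls for Dazl ran from 0 to 1 (all genes 0.0% to 1.56%), and were 1 without the 680 s libraries (all genes 1.97%). Without the libraries of 2.6 mW and 4.2x Dazl they were 4 (10.5%, against 8.09% of all genes). The 0 for laser power ran from 0 to 1 (all genes 0.0% to 8.09%) and were 8 without those libraries (21.1%, against 26.9%). The 1 scaled call for time ran from 0 to 5 (13.2%, against 14.9% of all genes), and was 0 with a mean of at least 10. Without the 30 and 180 s libraries of 1 mW and 1x Dazl 7 passed (18.4%, against 28.9% of all genes). Without the libraries of 2.6 mW and 4.2x Dazl 4 passed (10.5%, against 11.8%). Scaling to the median gene value also gave 1, but it was Kmt2d, lower. The interaction of Dazl by laser ran from 0 to 6 (15.8%, against 26.8% of all genes) and the other interactions stayed at 0. The causes were not tested.

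Of 1717 single-gene values under alternatives, 1582 kept direction and side of the threshold, 97 lost and 34 gained the call, and 4 changed sign, none of them past the threshold. These were Kdm5a for scaled Dazl (from -0.65 to 0.09 when 1 library was left out, the highest without 30 s at 1 mW and 1x, then 0.06 without the 30 s libraries, 0.42 without the 30 and 180 s libraries of 1 mW and 1x) and Kdm5a for scaled laser power (0.28 without the latter). No paired analysis was possible because a block on replicate number needs at least 2 shared numbers, and every library has the number 1; libraries matched on the other factors are already compared in the additive fit. Values of 1 to 3 are at the lower limit of the deposited scores, so ratios there have few steps.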

Other observations

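Cbx1 and Ing1, further chromatin genes of the list, picked after their values were seen, had low values until late, as Kdm5a did. Cbx1, a heterochromatin protein related to Cbx5, had 1, 1 and 8 at 30, 180 and 680 s at 1 mW and 1x Dazl, 2, 2 and 17 at 1 mW and 4.2x, 2, 1 and 22 at 2.6 mW and 1x, and 2, 2 and 28 at 2.6 mW and 4.2x. It was thus at 1 or 2 in every library of 30 and 180 s and at 8 or more at 680 s. Ing1, a reader subunit of the Sin3 complex that also holds Arid4b, had 1, 1 and 12, then 1, 2 and 17, then 2, 2 and 26, and then 10, 16 and 28. Their changes from 30 to 680 s as deposited were 2.10 ± 0.21 (SE, log2) and 2.00 ± 0.29, with limma adjusted p of 1.93e-15 and 4.33e-09.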
